A study of Sus scrofa with 19 samples.

Results

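The cytosolic ribosomal proteins are the protein subunits of the ribosome that translates nuclear messenger RNA. Members were taken by symbol from the authors' gene table: RPSA, and every RPL, RPS or RPLP symbol followed by digits, at most 1 letter and optional digits, with the RPS6K kinases left out. The rule found 73 genes with 72 symbols among the 14744 genes of the table (RPS3A stands for 2 gene identifiers), and 71 of them passed the filter on low counts into the 13552 genes tested. RPL10A and the RPS3A gene ENSSSCG00000002045 did not pass it. RPL22, RPL39, RPL39L, RPS4Y1 and RPS4Y2 carry no entry under the rule, so RPL22L1 and RPS4X are described without their paralogs and the pair of RPL39 and RPL39L not at all.

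RNA-seq of poly(A)-enriched RNA had been made from left ventricular myocardium of 19 pigs, labelled as female large whites, in models of cardiac remodelling and fibrosis. The DOX group (5 pigs) received doxorubicin and the MYO group (5 pigs) received Myocet, a liposomal doxorubicin, each at 60 mg/m2 in 3 cycles with follow-up of 3 months. The RemoLV group (3 pigs) had the left anterior descending artery closed by a balloon for 90 min and reopened, and its posterior wall was sampled at 6 months. The Hyper group (3 pigs) had a stent-induced narrowing of the aortic isthmus, and the Control group (3 pigs) was labelled as sham-operated. Both had anterior wall sampled at 6 months, and anterior wall was used for DOX and MYO too. The study's methods call the controls untreated and of the same age, and its introduction takes the DOX and MYO data from earlier work. Follow-up was 3 months in DOX and MYO and 6 months in the other groups. Drug and follow-up time therefore cannot be told apart in comparisons of DOX or MYO with those groups. Library totals ran from 9527710 to 20370209 counts, and each animal gave 1 library.

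The groups below follow the labels of the count files, and those labels are in doubt. In the authors' table of all libraries, 8 of 19 columns carried the name of another group than the count file with the same values: the 3 columns named Control held the 3 RemoLV files, the 3 columns named RemoLV held the 3 Control files, and 1 DOX and 1 MYO library were exchanged. The libraries labelled RemoLV stood apart in their markers. MYL2, the ventricular myosin light chain, was at 18.6 to 115 CPM there against 8980 to 18100 CPM in the other 16 libraries, while MYL4, the atrial light chain, was at 6030 to 8130 CPM against 0.55 to 21.9 CPM. The Y-linked gene DDX3Y was at 96.1 to 177 CPM in every DOX and MYO library despite the female label, and at 0 to 0.137 CPM in the other 9. The count files also carry running numbers in 2 separate ranges, 1 shared by DOX, MYO and RemoLV (13 libraries) and 1 by Hyper and Control (6 libraries), and the sources used here do not say what the numbers stand for. The comparison of DOX and MYO together with Hyper keeps the same libraries under both sets of names and is given first. Its sides lie in different number ranges and differ in DDX3Y and in follow-up time. Drug, model, number range, follow-up time and the Y-linked signal therefore cannot be told apart in it.

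A ribosome is built from a small subunit, which reads the messenger RNA, and a large subunit, which joins the amino acids, and nearly every ribosomal protein is present once in each particle, the stalk proteins RPLP1 and RPLP2 being the exception. The genes are transcribed in concert, and their messenger RNAs begin with a C followed by a run of pyrimidines, the 5′ terminal oligopyrimidine (TOP) tract, through which mTORC1 and LARP1 control their translation. Striated muscle also makes RPL3L, a paralog that takes the place of RPL3 in part of its ribosomes.

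The start of each gene is where the family carries its common signal. Windows of 30 bases, from 15 before to 15 after the annotated start, were read from RefSeq (Sscrofa11.1) and searched on the gene's strand for at least 7 consecutive C or T bases that begin with C within 10 bases of the start. Such a run was found in 27 of 72 member symbols (37.5%), against 2372 of 20573 other RefSeq genes (11.5%). A window without it says only that the letters are not there, and many annotated starts are predicted. The windows below are of the members whose levels carry the results, written 5′ to 3′ on the gene's strand with the run in capitals where one was found.
RPS28, chr2:70954758-70954787, minus strand: ggcacgtgaCTCCTCTCCgccagaccaccg
RPL37, chr16:25803512-25803541, minus strand: atagcggaagtgCTTTCTCTTCCggcctct
RPL31, chr3:53295373-53295402, minus strand: tggacgtcacagCCTCTCCCCCCgcccacc
RPL26, chr12:53553439-53553468, minus strand: gacgactgtggttCTCTTCCCTTTTgcggc
RPL10, chrX:124927234-124927263, plus strand: caggcgtgggagcgCCTCTTTTCCTTCggc
RPS27, chr4:95699433-95699462, minus strand: atttccgccttcgCTCCTTTCCggcggtga
RPS29, chr1:179456833-179456862, minus strand: tgcgcacgcgtcactggtccgcactgcctt
RPL38, chr12:6889952-6889981, minus strand: aagggcaaacgactattgttgaccctttgc
RPS2, chr3:39996164-39996193, plus strand: ttgtcgggaagcggaaggagccagaggcgt
RPL3, chr5:8922682-8922711, plus strand: gccagtctgggatttatatatcgcacgcct
RPL3L, chr3:40007858-40007887, plus strand: accagagcccatgcctgccacaggagatga
The run stood in genes that fell furthest (RPS28, RPL37, RPL31 and RPL26) and in RPS27, which did not fall, and was not found in RPS29 and RPL38, which fell as far. Over the tested members, the median log2 fold change of DOX and MYO against Hyper was -0.50 for the 27 with a run, of which 25 were lower, and -0.62 for the 44 without, of which 40 were lower.

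The first question was whether the ribosomal proteins differed as a set between the models. Against Hyper, 65 of 71 members were lower in DOX and MYO and 1, RPS27, was higher, at an adjusted p of 0.05 or less in edgeR's quasi-likelihood test. Over all genes tested, 16.9% were lower and 15.8% higher in that comparison. The members' median log2 fold change was -0.58, with a range of -1.36 (RPS28) to 0.32 (RPS27), against a median of 0.03 over all genes. Both subunits took part: 38 of 42 large-subunit and 27 of 29 small-subunit proteins were lower, with medians of -0.54 and -0.61. The 5 that were not called were RPLP1, RPL3, RPL15, RPL13 and RPS2. With only the DOX, MYO and Hyper libraries in the fit, the counts were again 65 lower and 1 higher.

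The same shift stood in the comparisons with Control under the file labels, which share their 3 Control libraries and are therefore given side by side. In DOX, 56 of 71 members were lower and 1 higher (all genes: 21.1% lower, 21.0% higher), with a median of -0.57. In MYO, 54 were lower and none higher (all genes: 21.7% and 20.7%), with a median of -0.50. In RemoLV, 57 were lower and 1 higher (all genes: 24.0% and 23.1%), with a median of -0.53. RemoLV against Hyper gave 59 lower and 1 higher (all genes: 18.6% and 17.0%), with a median of -0.56.

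Inside the 2 number ranges few or no members were called, although other genes differed between DOX and MYO and RemoLV. Hyper against Control gave no called member in either direction, with a median of 0.08, and no called gene of any kind (0.0% each way) by edgeR. At an unadjusted p under 0.05 it held 4 members (RPS27, RPS23 and RPS29 with lower and RPL19 with higher estimates) and 2418 genes. DESeq2 called no member and 104 genes higher and 207 lower. Without Hyper replicate 1, edgeR called RPS27 lower (-0.55, adjusted p = 0.031). DOX against MYO likewise gave no called member, a median of -0.06, and no called gene (0.0%) by edgeR, with 5 members and 960 genes at an unadjusted p under 0.05. DESeq2 called no member and 2 genes there. DOX and MYO against RemoLV, a comparison added after the levels had been seen, called 4 members lower and 5 higher, where 17.0% of all genes were lower and 16.8% higher, and the members' median was 0.01.

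The names in the authors' table turn this picture round in the comparisons with Control. Under them the Control group lies in the same number range as DOX and MYO, and only 4 members were lower and 1 higher in DOX (all genes: 14.6% and 15.0%), and 3 lower and 4 higher in MYO (all genes: 14.4% and 14.8%). RemoLV then had 57 members higher and 1 lower than Control (all genes: 24.0% and 23.2%), and Hyper 59 higher and 1 lower (all genes: 18.7% and 17.2%). DOX and MYO against Hyper gave 65 lower and 1 higher under both sets of names. Which names are right was not tested.

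**Figure D1:**
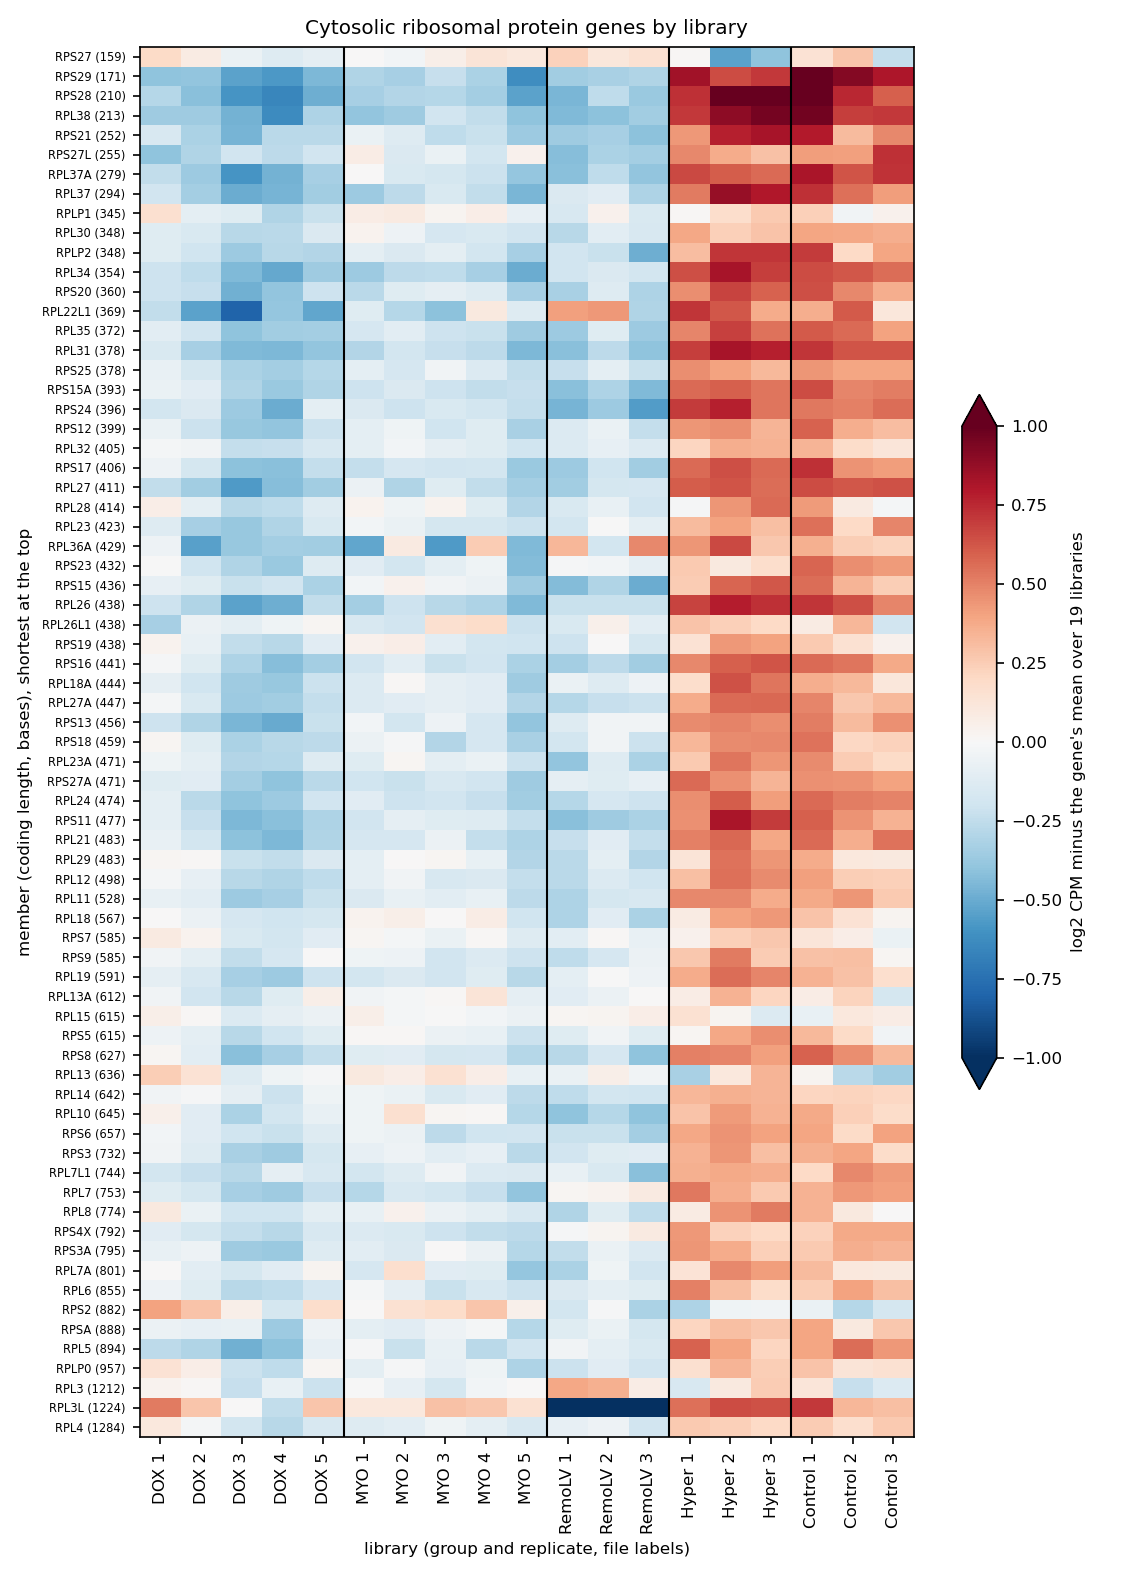
Log2 CPM of the 71 tested members (rows, shortest coding sequence at the top) in the 19 libraries (columns, by file label), each row relative to its own mean, with the color scale ending at -1 and 1. The 6 Hyper and Control columns are red in most rows and the 13 others blue, most deeply among the short members, while RPS27, RPL13, RPL15, RPS2, RPL3 and RPL3L depart from this.

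By library, the median over the members of the log2 CPM relative to each gene's mean was -0.32 to -0.07 in the 13 DOX, MYO and RemoLV libraries and 0.31 to 0.47 in the 6 Hyper and Control libraries, so these did not overlap. The size of the shift depends on the scaling. Counts were scaled by TMM, and with library size alone the median of all genes moved to 0.29 in DOX and MYO against Hyper, and to 0.45, 0.44 and 0.52 in DOX, MYO and RemoLV against Control. Relative to that median the members stayed at -0.61 against Hyper, and at -0.60, -0.52 and -0.54 against Control, but on the unshifted scale their medians were -0.32, -0.15, -0.08 and -0.03. The lower calls then numbered 39 of 71 against Hyper, where 5.61% of all genes were lower, and 23, 16 and 14 in DOX, MYO and RemoLV against Control, where 5.2%, 5.56% and 7.66% of all genes were lower.

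The unscaled share of all counts that lay on the members shows the same dependence. It was 2.645%, 2.672% and 2.927% in the Hyper libraries, above the highest DOX or MYO library (2.444%), and these groups did not overlap. The Control libraries spread from 1.967% to 2.794% and overlapped DOX (1.955% to 2.384%), MYO (2.138% to 2.444%) and RemoLV (2.225% to 2.352%). The 13 protein-coding genes of the mitochondrial genome took 18.55% to 28.8% of counts in Hyper and Control and 12.68% to 21.21% in the other groups, which overlapped. With those genes out of the total, the members took 3.54% ± 0.121 (SD, n = 3) in Hyper, 3.16% ± 0.382 (n = 3) in Control, 2.58% ± 0.129 (n = 5) in DOX, 2.69% ± 0.108 (n = 5) in MYO and 2.87% ± 0.0841 (n = 3) in RemoLV. Control replicate 3, at 2.762%, was below every RemoLV library and overlapped the MYO libraries.

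**Figure D2:**
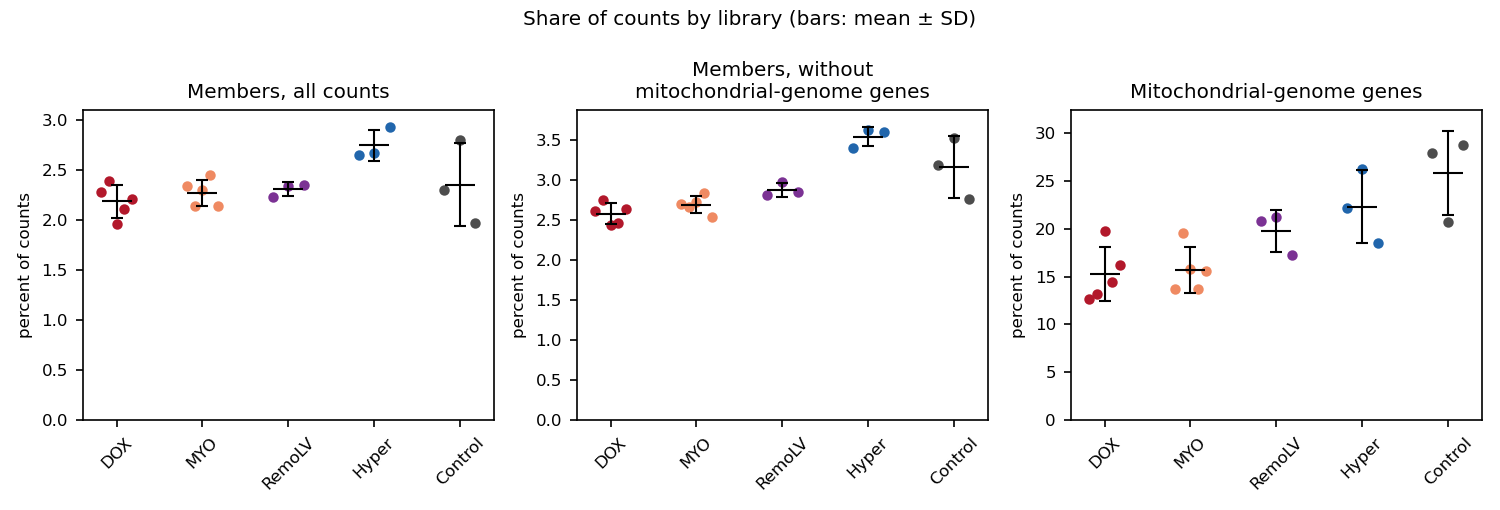
Percent of each library's counts on the 73 members, on the members after leaving out mitochondrial-genome genes, and on those mitochondrial genes, by group (points: libraries, bars: mean ± SD). The 3 Hyper libraries lie above every DOX, MYO and RemoLV library for the members and the Control libraries spread from below to among them, while Hyper and Control carry the larger mitochondrial shares.

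The members that fell furthest were small proteins of both subunits. RPS28, a small-subunit protein near the messenger RNA exit, was at 205, 187, 166, 160 and 178 CPM in the DOX libraries and at 199, 204, 205, 198 and 173 CPM in the MYO libraries. It was at 183, 210 and 194 CPM in RemoLV, 415, 506 and 522 CPM in Hyper and 552, 423 and 380 CPM in Control. Every DOX, MYO and RemoLV library lay below every Hyper and Control library, with no overlap. RPS28 fell by 1.36 on the log2 scale (SE 0.101, adjusted p = 2.18e-08) in DOX and MYO against Hyper, and its log2 fold changes against Control were -1.33 in DOX and -1.21 in MYO.

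RPS29, a zinc-binding protein of the small-subunit head, was at 167 to 189 CPM in DOX (median 182), 162 to 212 CPM in MYO (median 200) and 196, 199 and 202 CPM in RemoLV. Hyper had 446, 391 and 408 CPM and Control 577, 472 and 436 CPM, again without overlap. RPS29 had the lowest log2 fold change of any member in DOX (-1.46, SE 0.0995, adjusted p = 1.45e-08) and MYO (-1.35, adjusted p = 2.96e-08) against Control, and fell by 1.15 against Hyper. RPL38, a large-subunit protein known from mice to be needed for the translation of Hox messages, was at 109 to 147 CPM in DOX and MYO, 124 to 132 CPM in RemoLV, and 271 to 328 CPM in Hyper and Control. It fell by 1.22 (SE 0.0816, adjusted p = 4.96e-09) in DOX and MYO against Hyper.

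RPL31, RPL34, RPL37 and RPL26 are large-subunit proteins, and RPL26 is also known for binding the p53 messenger RNA. Their log2 fold changes against Hyper were -1.08, -1.07, -1.06 and -1.06, with adjusted p of 1.08e-07 or below in edgeR's test. RPL31 was at 222 to 273 CPM in DOX and MYO and 468 to 538 CPM in Hyper and Control. RPL26 was at 200 to 251 CPM in DOX and MYO, 248 to 249 CPM in RemoLV and 406 to 499 CPM in Hyper and Control. Neither overlapped. RPS21 and RPL37A were at -0.94 and -0.90.

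**Figure D3:**
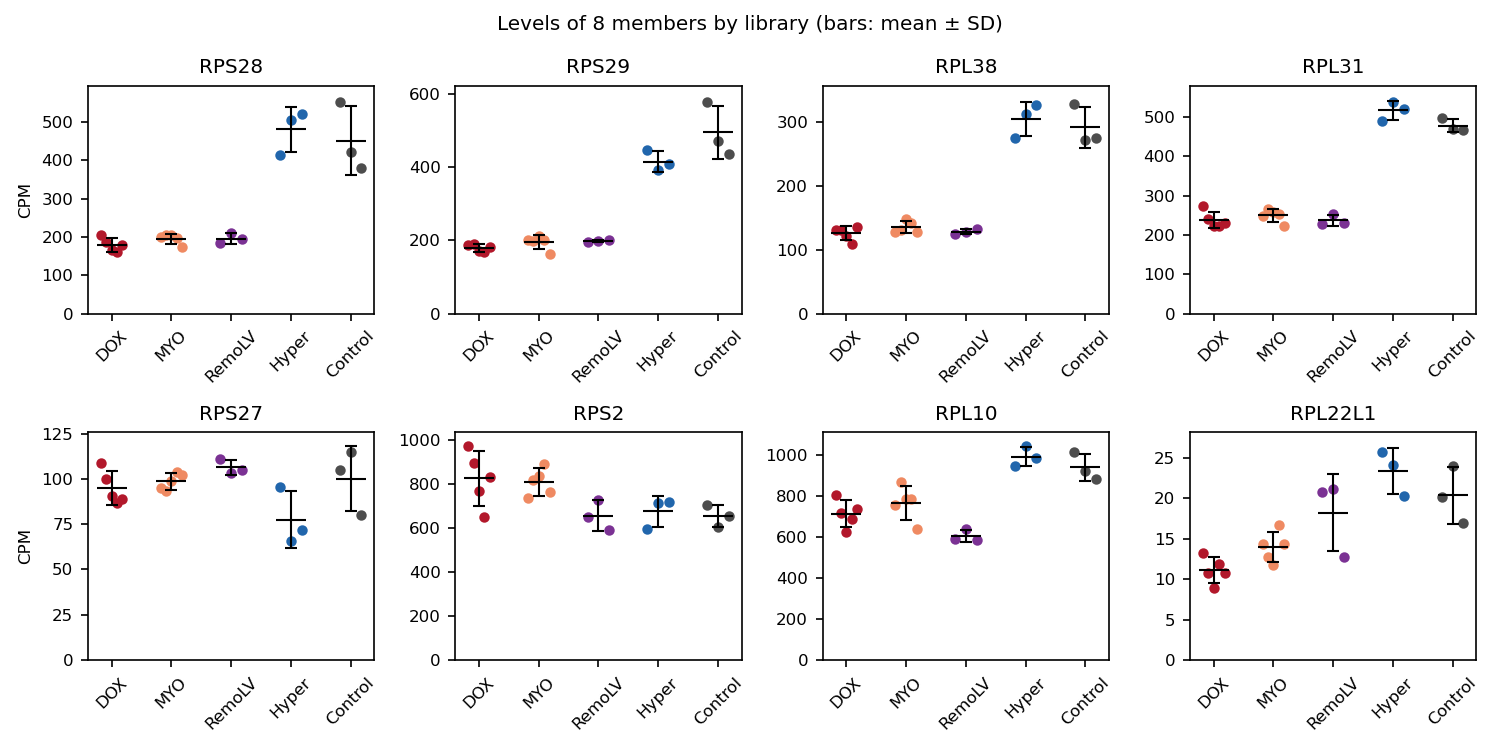
CPM of 8 members by library and group, file labels (points: libraries, black bars: mean ± SD). RPS28, RPS29, RPL38 and RPL31 lie at about 1 level in DOX, MYO and RemoLV and at a higher one in Hyper and Control, whereas RPS27 and RPS2 overlap between these. RPL10 lies low and RPL22L1 high in RemoLV relative to most DOX and MYO libraries, with overlap in both.

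The size of the fall followed the length of the coding sequence. In DOX and MYO against Hyper, the 20 tested members with a coding sequence under 400 bases had a median log2 fold change of -0.86, the 28 from 400 to under 600 bases -0.62, the 19 from 600 to under 900 bases -0.44, and the 4 of 900 bases or more -0.33. Across the 71 members, Spearman's rho between log2 fold change and coding length was 0.56 in that comparison, 0.61 in DOX and 0.54 in MYO against Control, 0.44 in RemoLV against Control, 0.42 in RemoLV against Hyper, 0.52 in DOX against MYO, 0.11 in Hyper against Control and 0.10 in DOX and MYO against RemoLV. In DOX against MYO, where no member was called, rho was 0.37 with exonic length in place of coding length, and 0.26 with coding length under the names of the authors' table. These are descriptions across genes of the same libraries, and genes are not independent replicates.

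Among the other genes, the share called lower was also larger at short coding lengths. Of the 465 tested genes that are no members and have a coding sequence under 400 bases, 37.2% were lower and 8.17% higher in DOX and MYO against Hyper, with a median of -0.22, against 90.0% of the members of that length. At 900 bases or more, 13.9% of the other genes were lower and 18.2% higher, with a median of 0.07, where 3 of the 4 members were lower (RPL4, RPLP0 and RPL3L). The difference between members and other genes of like length was not tested. When each library's trend with coding length was removed over all genes, an alternative added after the pattern was seen, 60 members were lower and 1 higher against Hyper, with a median of -0.48, where 17.9% of the 11937 genes in that fit were lower and 14.5% higher. Fragment size, RNA quality and other causes of a length trend were not tested.

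**Figure D4:**
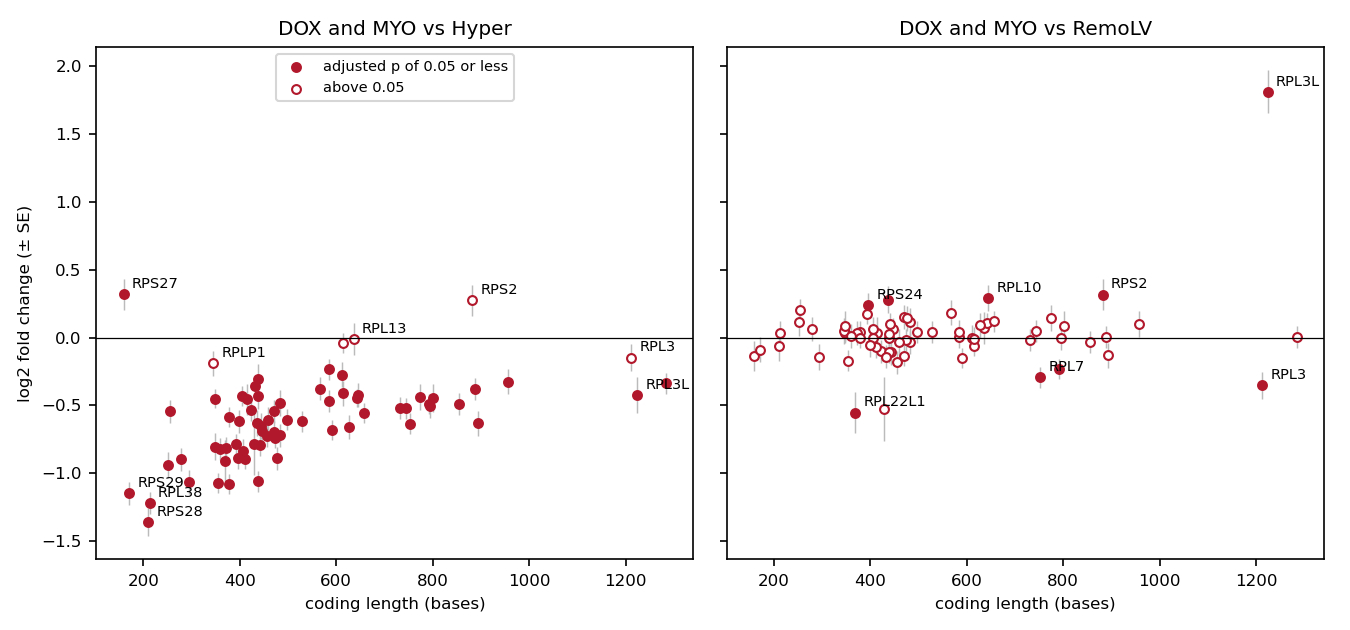
Log2 fold change (± SE) of the 71 tested members against coding length in DOX and MYO against Hyper (left) and against RemoLV (right), with filled points at an adjusted p of 0.05 or less. On the left the short members lie lowest, down to -1.36 for RPS28, with RPS27 above 0. On the right most members lie near 0 and RPL3L stands at 1.81.

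RPS27 went against both the set and its length. It has the shortest coding sequence of all members, 159 bases, and encodes a zinc-finger protein of the small subunit. Its levels were 86.7 to 109 CPM in DOX, 93.2 to 104 CPM in MYO, 103 to 111 CPM in RemoLV, 95.4, 65.6 and 71.6 CPM in Hyper and 105, 115 and 80.2 CPM in Control. Hyper replicates 2 and 3 were below every other library, and Hyper replicate 1 overlapped DOX and MYO. RPS27 was higher against Hyper by 0.32 (SE 0.114, adjusted p = 0.0389) in DOX and MYO and by 0.46 (adjusted p = 0.0155) in RemoLV. The first call was lost without any 1 of 7 libraries (DOX replicates 1 and 2, MYO replicates 3, 4 and 5, Hyper replicates 2 and 3), with adjusted p up to 0.237, and the second without RemoLV replicate 1 or Hyper replicate 2 or 3.

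RPS2, which shapes the decoding site of the small subunit, also stood outside the shift. It was at 651 to 975 CPM in DOX, 737 to 893 CPM in MYO, 590 to 729 CPM in RemoLV, 595 to 718 CPM in Hyper and 605 to 704 CPM in Control. It rose in DOX against Control by 0.34 (SE 0.123, adjusted p = 0.0361), a call lost without DOX replicate 1, 2 or 5 or Control replicate 2 or 3. The call was also lost with RLE scaling, no filter, the replicate block and only the groups compared. In DOX and MYO against Hyper RPS2 had 0.27 (adjusted p = 0.0676), and it was called there without DOX replicate 4 (edgeR, adjusted p = 0.0267). RPL13, RPL15 and RPLP1 had log2 fold changes of -0.01, -0.04 and -0.19 against Hyper, none called (adjusted p of 0.128 or more), and their libraries overlapped. RPL15 was the steadiest of these, at 290 to 355 CPM in all 19 libraries. RPS7, at -0.24 (adjusted p = 0.0284), was called but lost the call without Hyper replicate 2 or 3.

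RPL3L was the member that separated the libraries labelled RemoLV, named Control in the authors' table, from every other group. It encodes the heart and skeletal muscle form of RPL3, and RPL3 itself shapes the peptidyl transferase center. RPL3L was at 42.4, 66.5 and 52 CPM in the RemoLV libraries. DOX had 140 to 237 CPM, MYO 178 to 202 CPM, Hyper 241 to 260 CPM and Control 203 to 269 CPM, so no library of another group came near RemoLV. Its log2 fold change was -2.08 (SE 0.181, adjusted p = 1.63e-07) in RemoLV against Control, -2.23 (adjusted p = 9.01e-08) against Hyper, and 1.81 (SE 0.158, adjusted p = 8.71e-08) in DOX and MYO against RemoLV. RPL3L fell by 0.42 (adjusted p = 0.0232) in DOX and MYO against Hyper, a call lost without any 1 of the 3 Hyper libraries, and was not called in DOX or MYO against Control. Without DOX replicate 1 it was called lower in DOX against Control (edgeR, adjusted p = 0.0499). No other member was both called and more than 1 log2 unit from the members' median in a comparison with Control.

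RPL3 showed the opposite tendency in the same libraries. It was at 229, 225 and 185 CPM in RemoLV, 150 to 180 CPM in DOX, 155 to 176 CPM in MYO, 157 to 209 CPM in Hyper and 150 to 191 CPM in Control. RemoLV lay above every DOX and MYO library but overlapped Hyper and Control. In RemoLV against Hyper RPL3 was not called, at 0.205. RPL3 rose by 0.35 (SE 0.124, adjusted p = 0.0262) in RemoLV against Control, a call lost without RemoLV replicate 1 or 2 or Control replicate 2 or 3, and had a log2 fold change of -0.35 (adjusted p = 0.00957) in DOX and MYO against RemoLV, a call lost without RemoLV replicate 1 or 2.

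The log2 ratio of RPL3L to RPL3 counts (0.5 added to each) needs no scaling between libraries. It was -2.01 ± 0.371 (SD, n = 3) in RemoLV, 0.17 ± 0.268 (n = 5) in DOX, 0.16 ± 0.145 (n = 5) in MYO, 0.46 ± 0.163 (n = 3) in Hyper and 0.44 ± 0.0825 (n = 3) in Control. RemoLV reached from -2.44 to -1.76, and the lowest library elsewhere was DOX replicate 4 at -0.26. DOX and MYO exceeded RemoLV by 2.17 (exact two-sided permutation test, p = 0.0035, the smallest 10 against 3 allow, adjusted p = 0.028 over 8 comparisons). This comparison was added after the levels had been seen, so its p does not count as that of a planned test. RemoLV differed from Control by -2.45 and from Hyper by -2.47, where 3 against 3 cannot go under the exact permutation p of 0.1 that both reached. The differences of DOX and MYO from Control, -0.26 and -0.28, had exact permutation p of 0.161 and 0.0536, and that of both from Hyper, -0.29, had 0.0594.

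The fall of RPL3L moved with markers of another chamber. The 5 measured atrial markers of 7 listed (MYL4, MYL7, SLN, TNNI1 and NR2F2) summed to 9930 to 13000 CPM in the RemoLV libraries, against 85 to 140 in Control, 193 to 1260 in Hyper, 761 to 1250 in MYO and 1110 to 2410 in DOX. The 7 ventricular markers summed to 25100 to 29300 CPM in RemoLV against 45300 to 75100 CPM elsewhere. The 8 fibroblast markers summed to 10700 to 12400 CPM in RemoLV, 4620 to 7180 CPM in DOX and MYO and 1570 to 3930 CPM in Hyper and Control. Their sum thus moved with the members' shift, but most of the genes were not called. In DOX and MYO against Hyper 3 of the 8 were higher and 0 lower (all genes: 15.8% and 16.9%). In MYO against Control 3 were higher and 1 lower (all genes: 20.7% and 21.7%). Of 6 listed skeletal muscle markers 2 were measured, ACTN3 and CKM, of which CKM is also abundant in heart muscle. Their sum was 7190 to 10600 CPM in Hyper and Control, 4020 to 5770 CPM in DOX and MYO and 1710 to 3200 CPM in RemoLV. This sum separated Hyper and Control from the rest without overlap. Only 1 of the 2 genes was called lower in DOX and MYO against Hyper (all genes: 16.9% lower), with a median of -0.59. In RemoLV against Control also only 1 was lower (all genes: 24.0% lower), with a median of -0.19, so the sum does not stand for both genes. None of these markers was at 0 in a whole group. Their part in either result was not tested, and in bulk tissue fewer cells of a type and less RNA per cell cannot be told apart.

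**Figure D5:**
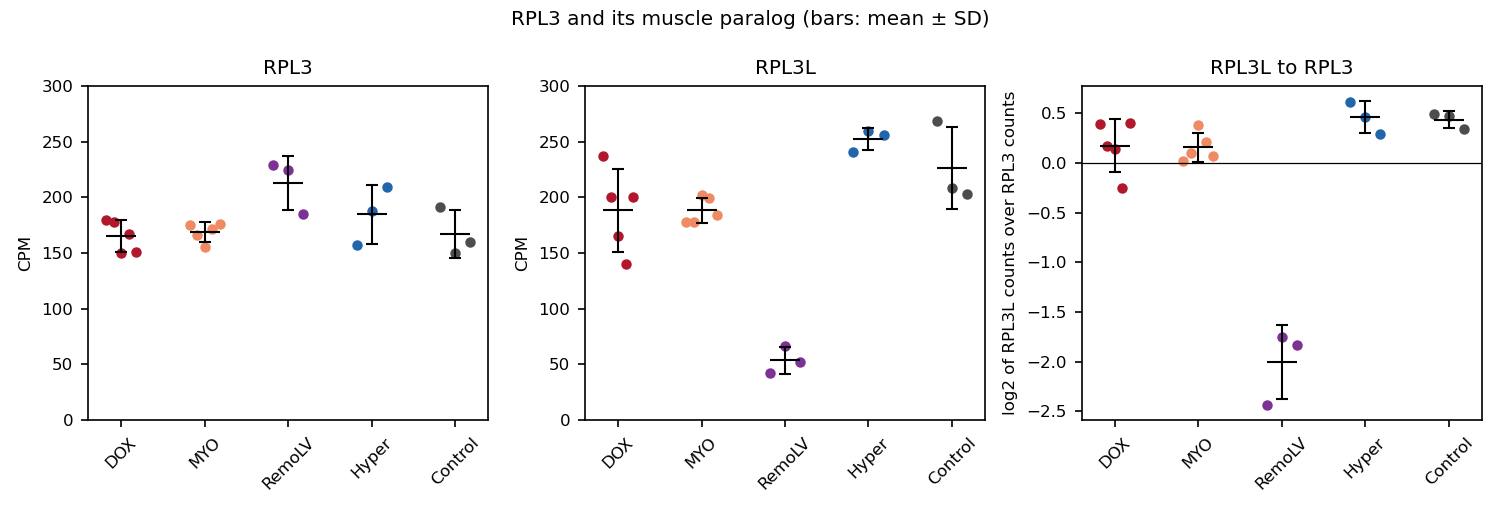
RPL3 and RPL3L in CPM and the log2 ratio of their counts, by library and group under the file labels (points: libraries, black bars: mean ± SD). The 3 RemoLV libraries lie at 42.4 to 66.5 CPM for RPL3L and at or below -1.76 for the ratio, below every other library.

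The other paralogs were called lower in DOX and MYO against Hyper, with different sizes. RPL22L1, the paralog of RPL22, was at 8.93 to 13.2 CPM in DOX, 11.7 to 16.7 CPM in MYO, 12.7 to 21.2 CPM in RemoLV, 20.3 to 25.8 CPM in Hyper and 16.9 to 24 CPM in Control. It fell by 0.91 (SE 0.149, adjusted p = 0.000189) in DOX and MYO against Hyper and by 0.55 (adjusted p = 0.00921) against RemoLV, the latter lost without RemoLV replicate 1 or 2, and its RemoLV libraries overlapped Control. RPS27L, a p53-induced paralog of RPS27, fell by 0.55 against Hyper (adjusted p = 8.96e-05), whereas RPS27 was higher. RPL26L1 fell by 0.31 with an adjusted p of 0.0496, a call lost on leaving out any 1 of 10 of the 13 libraries, where RPL26 fell by 1.06. RPL7L1, a homolog with a role in ribosome assembly, fell by 0.52 and RPL7 by 0.63.

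Those named here of the 5S particle and the stalk, or with roles beyond the ribosome, were lower in DOX and MYO against Hyper except RPLP1, which was not called. RPL5 and RPL11, which with the 5S RNA form the particle that inhibits MDM2, fell by 0.63 (adjusted p = 5.05e-05) and 0.62 (adjusted p = 1.16e-05) in DOX and MYO against Hyper. RPL5 was at 398 to 549 CPM in DOX and MYO and 642 to 834 CPM in Hyper, and RPL11 at 296 to 362 CPM and 491 to 532 CPM, without overlap. In the stalk that recruits elongation factors, RPLP2 fell by 0.80 and RPLP0 by 0.32, while RPLP1 was not called at -0.19. RPLP0 lost its call without Hyper replicate 2, and RPLP1 gained one without DOX replicate 1 (edgeR, adjusted p = 0.0352).

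RPS6, the substrate of the S6 kinases, fell by 0.56 (adjusted p = 2.2e-05), from 755 to 792 CPM in Hyper to 484 to 566 CPM in DOX and MYO. RPS27A, made as a fusion with ubiquitin, fell by 0.69, RPSA, which also serves as a laminin receptor, by 0.38, and RPS19, mutated in Diamond-Blackfan anemia, by 0.43. RPL10, which completes the large subunit late in its maturation, fell by 0.42 (adjusted p = 0.00171). It was at 623 to 866 CPM in DOX and MYO, 588, 637 and 587 CPM in RemoLV and 884 to 1043 CPM in Hyper and Control. The RemoLV libraries had the lowest values but overlapped DOX and MYO. RPL10 was 0.29 higher on the log2 scale in DOX and MYO than in RemoLV (adjusted p = 0.0232), a call lost without RemoLV replicate 1 or 3.

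Of the 9 members called between DOX and MYO and RemoLV, 5 were higher (RPL3L, RPS2 at 0.32, RPL10, RPS15 at 0.28 and RPS24 at 0.24) and 4 lower (RPL22L1, RPL3, RPL7 at -0.29 and RPS4X at -0.23). RPS4X is the X-linked form of a small-subunit protein, and RPL10 lies on chrX too. DDX3Y was at 96.1 to 177 CPM in every DOX and MYO library and at 0 CPM in RemoLV. Drug, model, follow-up time and this Y-linked signal therefore cannot be told apart in the comparison. The calls of RPS2, RPS15 and RPS24 were lost on leaving out 6, 9 and 8 of the 13 libraries in turn, and their adjusted p in the full fit were 0.036, 0.04 and 0.0402. RPL3L and RPL7 kept the call whichever library was left out.

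Levels between members were compared per kilobase of RefSeq exonic length. Among the highest in the Hyper and Control libraries were RPS24 at 1420 CPM per kilobase ± 111 (SD, n = 6), RPL10 at 1140 ± 70.2 and RPLP1 at 955 ± 82.8. In DOX and MYO the same 3 stood at 802 ± 64, 871 ± 89.3 and 858 ± 87 (n = 10) and did not differ beyond their spread, and in RemoLV RPS24 (678) and RPL10 (712) stood below RPLP1 (827). RPL3 and RPL3L stood at 133 ± 17.8 and 166 ± 19.4 CPM per kilobase in Hyper and Control, 126 ± 8.51 and 130 ± 18.1 in DOX and MYO, and 161 ± 18.4 and 37.1 ± 8.43 in RemoLV. As means over all 19 libraries, RPS27L (67.5), RPL22L1 (26.6), RPL26L1 (25.1) and RPL7L1 (15.2) stood low. RPL36A was lowest of the tested members at 2.64 ± 0.783. The RefSeq models were matched by symbol and some are long, such as 5903 bases for RPS2, which lowers its value. RPL10A was at 0.0693 to 0.509 CPM and RPS3A (ENSSSCG00000002045) at 0.133 to 1.34 CPM in all libraries, while RPS3A (ENSSSCG00000009019) was at 338 to 596 CPM. Ribosomal protein genes have near-identical processed copies, so reads may have been divided or left out in counting and the level of any member is uncertain to that degree.

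Other genes of the same machinery were taken from fixed lists. Of 16 listed TOP messages outside the ribosome, 14 were lower in DOX and MYO against Hyper and none higher (all genes: 16.9% and 15.8%), with a median of -0.53. They include NACA, which binds nascent chains at the ribosome (-0.97), the elongation factor subunit EEF1B2 (-0.77), the initiation factor subunit EIF3E (-0.87) and TPT1 (-0.71). EEF1A1 (-0.05, adjusted p = 0.868) and EIF3F (-0.11, adjusted p = 0.413) were not called. RPL36AL, a ribosomal protein that the symbol rule leaves out, and RACK1, a scaffold on the small subunit, fell by 0.71 and 0.62.

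Of 28 ribosome assembly genes tested of 30 listed, 10 were lower and 1 higher in DOX and MYO against Hyper (all genes: 16.9% and 15.8%), with a median of -0.17. In RemoLV against Hyper 16 were lower and 1 higher (all genes: 18.6% and 17.0%), with a median of -0.41. In DOX and MYO against Hyper, NOP10, a small protein of box H/ACA particles, fell by 1.24 and the snoRNP core protein NOP58 by 0.71, while UBTF, which activates ribosomal RNA transcription, rose by 0.57. Of 8 regulators, 2 were higher and none lower, where 15.8% and 16.9% of all genes were, with a median of 0.04. LARP1 rose by 0.70 (adjusted p = 0.00387) and RPTOR, a subunit of mTORC1, by 0.40 (adjusted p = 0.00509). MTOR had -0.10 and MYC 0.74, neither called.

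The 73 mitochondrial ribosomal protein genes tested serve the separate ribosome of mitochondria. Against Hyper, 32 of 73 were lower and 3 higher in DOX and MYO (all genes: 16.9% and 15.8%), with a median of -0.24, and 56 were lower and 1 higher in RemoLV (all genes: 18.6% and 17.0%), with a median of -0.63. Between DOX and MYO and RemoLV, 40 were higher and none lower (all genes: 16.8% and 17.0%), with a median of 0.34, where the cytosolic members had 5 higher and 4 lower of 71. The difference between the 2 families was not tested.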

How the data were processed

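Per the labels and the study's methods, total RNA was extracted, poly(A) mRNA was enriched and directional libraries were sequenced in pairs, and the authors aligned reads with STAR to Sscrofa11.1 and counted genes with HTSeq 0.11.1 in union mode with the reverse strand setting. The deposited count files (25879 genes, 19 libraries) were used as raw counts. The authors' table of transformed expression on a log2-like scale (deposited log2 values, 1 column per library and none of an unlisted sample) gave only gene symbols and column names. Its columns were matched to the count files by Spearman correlation. Its columns of log2 fold changes and p-values from the authors' DESeq2 comparisons were not used.

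Counts were filtered (filterByExpr), scaled by TMM and fitted in 1 model of 5 groups with edgeR 4.0.16 (R 4.3.3). Quasi-likelihood p-values were adjusted by Benjamini-Hochberg over all genes tested, with a threshold of 0.05 and no fold threshold. CPM use the TMM-scaled library sizes and a fold change is log2. Scripts were tested on simulated data. Alternatives were the table's names, RLE, library size alone, TMM without the members, 2 other filters, DESeq2 1.42.0, fits of only the groups compared, a replicate block, a coding length correction and leaving out each library. The ratio of RPL3L to RPL3 was compared by exact permutation.

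The members and lists were chosen with earlier results of these data known. Genes named were the paralog pairs, RPL10 and RPL11, members with roles outside the ribosome's core, the 2 called members with the highest and the 2 with the lowest fold change in each comparison, if their average log2 CPM reached 2, and called members over 1 log2 unit from the median. Others named against Hyper (such as RPL31, RPL13 and RPS7) and the members called against RemoLV were chosen after their values were seen.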

Additional observations from a re-analysis of the deposited data

Results flagged for a closer look

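In the groups of 5, the gap of the lowest or highest library to its neighbour was compared with the group's range for each named member, the ratio of RPL3L to RPL3 and the share of counts on the members. Of 52 such checks 3 passed the limit, where chance flags about 1 in 20. RPSA was at 220 CPM in DOX replicate 4, against 267 to 272 CPM in the other DOX libraries. RPS28 was at 173 CPM in MYO replicate 5, against 198 to 205 CPM in the other MYO libraries. RPS29 was at 162 CPM in the same library, against 198 to 212 CPM. MYO replicate 5 also had the lowest median member level of the MYO group, at -0.27 relative to the genes' means. Without it 51 members were lower in MYO against Control, where 54 were lower with it.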

How the results depend on the processing

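Under the names of the authors' table, called members were 4 lower and 1 higher in DOX and 3 lower and 4 higher in MYO against Control. They were 57 higher and 1 lower in RemoLV and 59 higher and 1 lower in Hyper against Control. The shares of all genes in these are given above. RemoLV against Hyper had 0 members either way (all genes: 0.0% each way). DOX and MYO against RemoLV had 1 higher and 58 lower (all genes: 23.1% and 24.2%). RPL3L then stood at 1.78 in DOX, 1.84 in MYO and 2.08 in RemoLV against Control, RPS29 at 1.31 and RPL3 at -0.35 in RemoLV against Control, and RPL3L, RPL10, RPS15 and RPS24 at -0.27, -0.34, -0.52 and -0.75 in DOX and MYO against RemoLV, all reversed. The difference in the log2 ratio of RPL3L to RPL3 became 2.10 and 2.24 for DOX and MYO against Control, 2.47 for Hyper and 2.45 for RemoLV against Control, and -0.27 in DOX and MYO against RemoLV. The exchange of libraries between groups makes these changes.

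With library size alone, higher and lower members numbered 5 and 23 in DOX, 6 and 16 in MYO and 7 and 14 in RemoLV against Control, 3 and 28 in RemoLV against Hyper, and 2 and 39 in DOX and MYO against Hyper, with 1 higher in DOX and MYO against RemoLV. RPS7 turned to 0.025 against Hyper, where the median of all genes moved to 0.29. At this scaling 41.5% of all genes were higher and 5.2% lower in DOX against Control. The shares were 40.6% and 5.56% in MYO and 45.6% and 7.66% in RemoLV against Control, and 30.4% and 7.1% in RemoLV against Hyper. DOX and MYO had 28.7% and 5.61% against Hyper and 11.6% and 17.1% against RemoLV. With RLE scaling 0 members were higher in DOX against Control and 3 in DOX and MYO against RemoLV (all genes: 20.0% and 16.1% higher). With no filter 0 were higher in DOX and in RemoLV against Control and in DOX and MYO against Hyper (all genes: 13.7%, 15.7% and 10.1%). With at least 10 counts in every sample 1 was higher in MYO against Control and 2 in DOX and MYO against RemoLV (all genes: 22.3% and 16.6%). With only the groups compared in the fit, 0 were higher in DOX, 1 in MYO and 0 in RemoLV against Control (all genes: 16.8%, 19.1% and 18.9%). With the coding length trend removed 2 were higher in DOX against Control (all genes: 19.1%). The cause was not tested for these. DESeq2 and TMM without the members moved no count by over 1.5 times.

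Replicate numbers did not pair the samples: deviations from the group means correlated at a median r of 0.007 over 32 same-numbered pairs, of which 4 exceeded 0.1. With the replicate block, 52, 51 and 57 members were lower in DOX, MYO and RemoLV against Control, 59 in RemoLV against Hyper and 61 in DOX and MYO against Hyper, where 17.9%, 18.1%, 22.8%, 17.2% and 13.8% of all genes were lower. The block left 0 higher in DOX against Control and in DOX and MYO against Hyper, and 3 in DOX and MYO against RemoLV.

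Leaving out each library in turn gave 0 to 1 higher and 51 to 62 lower in DOX, 0 to 1 and 51 to 55 in MYO, 0 to 2 and 52 to 59 in RemoLV and 0 and 0 to 1 in Hyper, each against Control. It gave 0 and 0 in DOX against MYO, 0 to 2 and 57 to 59 in RemoLV against Hyper, 0 to 2 and 59 to 65 in DOX and MYO against Hyper, and 1 to 5 and 2 to 5 against RemoLV. The ratio difference ran from -0.38 to -0.22 in DOX and MYO against Hyper, from -0.34 to -0.25 in MYO against Control and from -0.32 to -0.16 in DOX against Control, the last without DOX replicate 4, and it reached an unadjusted exact permutation p of 0.05 or less in 7 such fits. Counts of 3 animals a group limit Hyper, RemoLV and Control, and low members such as RPL36A, at 0.917 to 2.33 CPM, are the least precise.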

Other observations

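In DOX and MYO against RemoLV, 12 ribosome assembly genes were higher and 2 lower of 28 tested (all genes: 16.8% and 17.0%), among them RRP9 (0.60) and POLR1A (0.57), the largest subunit of RNA polymerase I, while WDR12 (-0.30) and NOP10 (-0.47) were lower. EEF1A1, the main elongation factor, had a log2 fold change of -1.34 (edgeR, adjusted p = 1.47e-05) in that comparison and -0.05 against Hyper. The difference between the median centred levels of members under 400 bases and of those of 600 bases or more was -0.20 to -0.09 in all 13 DOX, MYO and RemoLV libraries and 0.22 to 0.37 in all 6 Hyper and Control libraries.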
